A study of Mus musculus with 10 samples.

Results

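Hox genes encode homeodomain transcription factors that lie in 4 clusters, A to D, and pattern the embryo along its head-to-tail axis. The 10 genes described here, Hoxa2, Hoxa3, Hoxa4 and Hoxa5 of the A cluster and Hoxb2, Hoxb3, Hoxb4, Hoxb5, Hoxb6 and Hoxb8 of the B cluster, were taken by symbol from a table of 22046 protein-coding genes. They were picked with their values in these libraries known, because 1 wild-type animal, number 2, stands apart in them, so that their levels are given as a description without a test. Read counts and levels refer to total RNA and ribosome footprints of mouse cerebellum.

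Within a cluster, genes at the low-numbered end are switched on farther forward in the hindbrain, and genes at the high-numbered end farther back, toward the spinal cord. The cerebellum arises from the first rhombomere, the segment of the embryonic hindbrain in front of the forward limit of Hox expression. The brainstem behind it, with its motor, respiratory and precerebellar nuclei, arises from segments that do express Hox genes, many of which stay on in adult neurons there. PBX, MEIS and PREP proteins bind DNA together with Hox proteins, retinoic acid induces Hox genes in the embryo, and Polycomb complexes keep silent clusters closed.

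The study compared Bmal1-/- mice, which lack a transcription factor of the circadian clock in all cells, with Bmal1+/+ littermates. Both came from matings of Bmal1+/- parents on a C57BL/6 background, lived under 12 h of light and 12 h of dark, and the Cre line and floxed mice that the protocol also mentions are in no sample's genotype label. Cerebellum was dissected on ice, frozen and lysed with cycloheximide, which holds ribosomes on mRNA. From each lysate 1 fraction was cut with RNase I and its fragments of 28 to 34 nucleotides were kept as footprints, and the other was fragmented for 40 min as total RNA. Knockouts 1 and 3 and wild types 2 and 3 had values for both fractions, so that each genotype has 2 animals. Sex, age and time of day are not among the labels used here, and nothing in them says how the tissue was cut away from the brainstem.

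The libraries held 25.6 M to 43.2 M recovered reads in total RNA and 27.7 M to 41 M in footprints. All 12 genes of a list of cerebellar neuron markers were above 0 in every library, and their summed total RNA, in recovered reads per 1 M reads of the library (RPM), was 10498 and 10872 in knockouts 1 and 3 and 9775 and 10585 in wild types 2 and 3. The targeted gene, Arntl, had 267.4 and 272.2 RPKM of total RNA in the knockouts, against 178.8 and 179.4 in the wild types, and 123.7 and 107.0 RPKM of footprints in the knockouts, against 257.6 and 294.7 in the wild types. Its values cover the whole gene and not the deleted part alone, and the cause of the higher total RNA in the knockouts was not tested. Wild type 2 was highest of the 4 animals in the Hox genes and wild type 3 was lowest in the choroid plexus list, and both patterns are given with values below.

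Summed over the 10 genes, total RNA held 0.667 and 1.41 RPM in knockouts 1 and 3, against 20.7 in wild type 2 and 1.44 in wild type 3. Footprints held 0.878 and 0.365 RPM in knockouts 1 and 3, against 19.3 in wild type 2 and 1.30 in wild type 3. Wild type 2 therefore stood 14.3-fold above the next animal in total RNA and 14.9-fold above it in footprints, and wild type 3 lay just above both knockouts. In reads, the 10 genes together had 26 and 61 in knockout total RNA and 529 and 40 in wild-type total RNA, and 36 and 11 in knockout footprints and 736 and 36 in wild-type footprints. In bulk tissue, more cells of a type and more RNA per cell cannot be told apart.

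**Figure D1:**
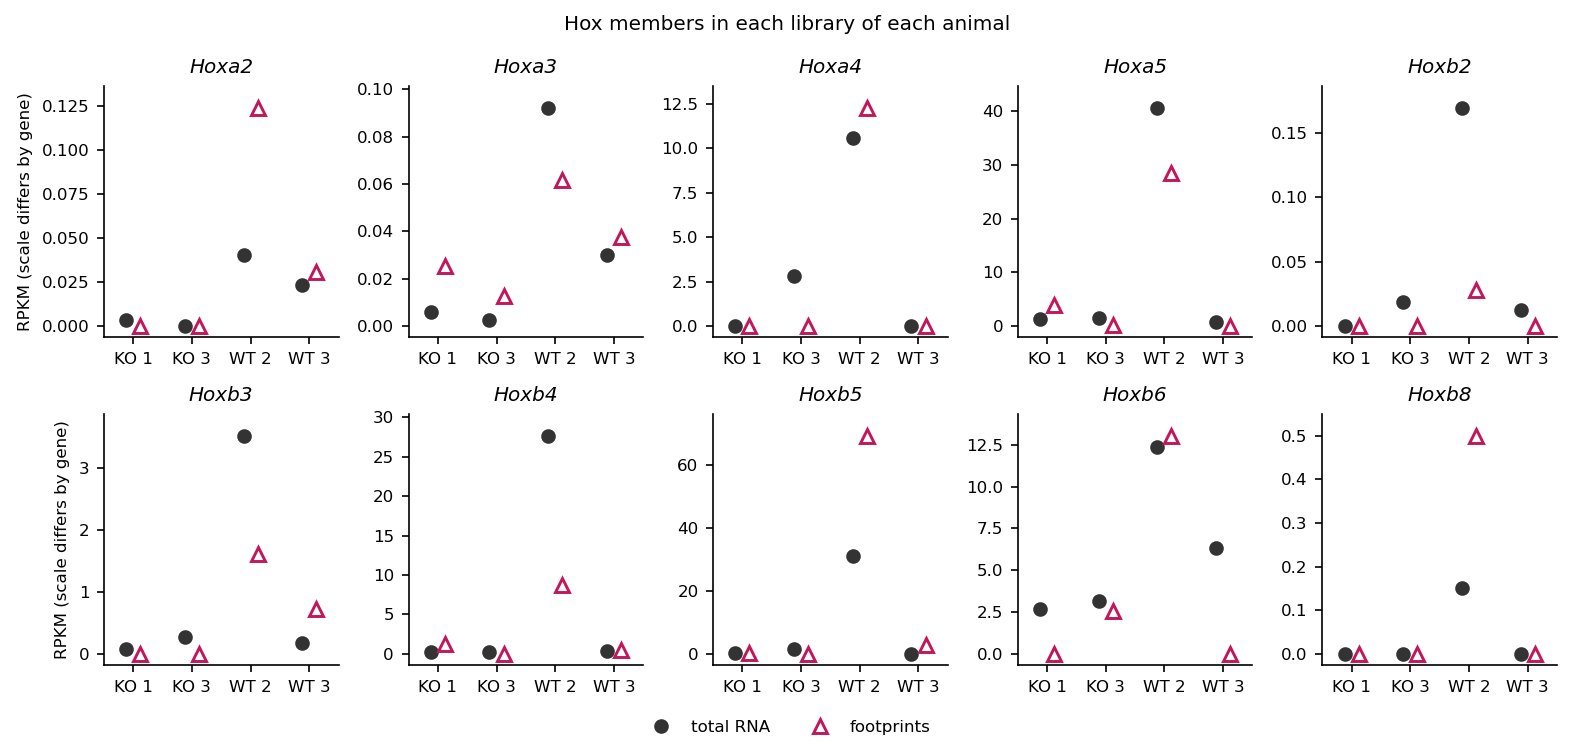
RPKM of each of the 10 Hox genes (y axis, with its own scale in each panel) in knockouts 1 and 3 and wild types 2 and 3 (x axis). Filled circles are total RNA, open triangles are footprints, 1 point is 1 library, and wild type 2 is highest in all 20 of the gene and fraction pairs.

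The highest-numbered member of the A cluster, Hoxa5 (ENSMUSG00000038253; mm10, chr6:52201754-52204587, minus strand), is known for roles in the caudal hindbrain, phrenic motor neurons and lung. It had 1.39 and 1.57 RPKM of total RNA in knockouts 1 and 3, against 40.6 RPKM in wild type 2 and 0.727 RPKM in wild type 3. Its footprints were 3.92 and 0.241 RPKM in the knockouts, against 28.5 RPKM in wild type 2 and 0 in wild type 3. Wild type 2 was high in both fractions, wild type 3 was below both knockouts in both, and the genotypes therefore overlapped. The values rest on 8 and 10 total RNA reads in the knockouts and 157 and 3 in the wild types, and on 22 and 1 footprint reads in the knockouts and 148 and 0 in the wild types.

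Its counterpart in the B cluster, Hoxb5 (ENSMUSG00000038700; mm10, chr11:96303336-96306121, plus strand), had the most footprint reads of the 10 genes. Total RNA was 0.357 and 1.44 RPKM in knockouts 1 and 3, against 31.2 RPKM in wild type 2 and 0 in wild type 3. Footprints were 0.365 RPKM and 0 in the knockouts, against 69.5 RPKM in wild type 2 and 2.71 RPKM in wild type 3. In total RNA wild type 3 was the lowest animal, whereas in footprints both wild types were above both knockouts. The wild type 2 values rest on 118 total RNA and 353 footprint reads, and no other library had more than 10.

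Hoxb4 (ENSMUSG00000038692; mm10, chr11:96318267-96321638, plus strand) marks the caudal hindbrain in the embryo. Its total RNA was 0.316 and 0.284 RPKM in knockouts 1 and 3, against 27.6 RPKM in wild type 2 and 0.439 RPKM in wild type 3. These stand for 1 and 1 reads in the knockouts and 59 and 1 reads in the wild types. Footprints were 1.29 RPKM and 0 in the knockouts, against 8.71 RPKM in wild type 2 and 0.480 RPKM in wild type 3. The genotypes did not overlap in total RNA, though outside wild type 2 each value was 1 read, and they overlapped in footprints.

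The homeobox of Hoxa5, the part of the gene that encodes the DNA-binding homeodomain, is shown because this gene had the highest total RNA level per kb of exon in wild type 2. It is 180 bases of coding sequence inside 1 exon, read from the mm10 genome with a GENCODE M21 transcript, 5′ to 3′ on the gene's own strand (chr6:52202632-52202811, minus). Capitals mark a run of codons in the recognition helix, the part of the homeodomain that lies in the DNA groove.
Hoxa5: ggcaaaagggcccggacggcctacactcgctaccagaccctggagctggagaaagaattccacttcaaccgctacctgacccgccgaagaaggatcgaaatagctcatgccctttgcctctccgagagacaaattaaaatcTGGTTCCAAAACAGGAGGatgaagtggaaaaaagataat

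Over whole transcripts, windows of 28 bases were compared with all other annotated transcripts. For Hoxa4, Hoxa5, Hoxb2, Hoxb3, Hoxb4, Hoxb5, Hoxb6 and Hoxb8 at most 1.87% of windows also occurred elsewhere. The share was 13.8% for Hoxa2 and 8.49% for Hoxa3, nearly all with Gm28308, an annotated gene that overlaps both on the same strand. An antisense transcript, Hoxb3os, covers 52.9% of the exon bases of Hoxb3 and 27.3% of those of Hoxb2, and the sources used here do not say whether reads were counted by strand, so that values of these 4 genes are uncertain in that respect. Gm29430, likewise antisense, covers 16% of Hoxa4.

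Among the lowest-numbered members, Hoxa2 patterns the second pharyngeal arch and is the Hox gene expressed farthest forward, up to the front of the second rhombomere. It had 0.0034 RPKM and 0 in total RNA of knockouts 1 and 3, against 0.0405 and 0.0237 RPKM in wild types 2 and 3, and in footprints 0 in both knockouts, against 0.124 and 0.0311 RPKM in wild types 2 and 3. Both wild types were above both knockouts in both fractions, on 33 footprint reads in wild type 2 and at most 8 reads in any other library. Hoxb2, which acts in development of facial motor neurons, had 0 and 0.0188 RPKM of total RNA in the knockouts, against 0.169 and 0.0129 RPKM in the wild types. Its footprints were at 0 in all animals but wild type 2, which had 0.0283 RPKM from 11 reads. Knockout 3 was above wild type 3 in total RNA, so that the genotypes overlapped.

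Hoxa3, needed for thymus and parathyroid formation, was the only member above 0 in every library. Its total RNA was 0.0062 and 0.0028 RPKM in knockouts 1 and 3, against 0.0921 and 0.0302 RPKM in wild types 2 and 3, and its footprints were 0.0254 and 0.0129 RPKM in the knockouts, against 0.0617 and 0.0377 RPKM in the wild types. The genotypes did not overlap in either fraction, with 1 to 8 reads in every library of the 3 animals other than wild type 2. Hoxb3 had 0.0865 and 0.272 RPKM of total RNA in the knockouts, against 3.53 and 0.180 RPKM in the wild types, and footprints of 0 in both knockouts, against 1.62 and 0.723 RPKM in the wild types. Knockout 3 was above wild type 3 in total RNA, whereas both wild types were above both knockouts in footprints.

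Hoxa4 had 0 and 2.82 RPKM of total RNA in knockouts 1 and 3, against 10.6 RPKM and 0 in wild types 2 and 3. Its footprints were listed at 0 in every animal but wild type 2, which had 12.3 RPKM. Hoxb6, which marks the lower hindbrain and spinal cord, was the member with the most even total RNA, at 2.68 and 3.14 RPKM in the knockouts, against 12.4 and 6.35 RPKM in the wild types. Both wild types were above both knockouts there, while Hoxb6 footprints were 0 and 2.60 RPKM in the knockouts, against 13 RPKM and 0 in the wild types, and overlapped. Hoxb8, a spinal cord gene that is also expressed in microglial precursors, was listed at 0 in both fractions of both knockouts and of wild type 3, and had 0.152 RPKM of total RNA and 0.500 RPKM of footprints in wild type 2. Read counts of Hoxa4 and Hoxb8 are the smallest that give these values as whole reads, and the true counts may be a whole multiple of them.

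Genotype groups did not overlap for 4 of 10 genes in total RNA, Hoxa2, Hoxa3, Hoxb4 and Hoxb6, against 48.5% of the 17600 genes above 0 in a total RNA library. In footprints they did not overlap for 4 of 10, Hoxa2, Hoxa3, Hoxb3 and Hoxb5, against 36.7% of 16536 genes. Both shares are near or under what all genes show. By contrast, wild type 2 was the highest animal in both fractions for 10 of 10 genes, against 8.22% of 17940 genes, and at least 2-fold above each other animal in both fractions for 7 of 10, against 0.524%. Nothing is read from the counts on wild type 2, because the genes were chosen with its height known. The 3 genes short of 2-fold were Hoxa2 in total RNA (1.71-fold over wild type 3), Hoxa3 in footprints (1.64-fold over wild type 3) and Hoxb6 in total RNA (1.95-fold over wild type 3).

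Levels were then compared between genes in wild type 2 as RPM per kb of exon, since RPKM in the table is scaled differently from gene to gene. Hoxa5 was highest at 3.27 (95% counting interval 2.77 to 3.82), then Hoxb5 at 1.65 (1.37 to 1.98) and Hoxb4 at 0.898 (0.683 to 1.16), and no 2 of these intervals overlapped. Hoxb6 at 0.616, Hoxa4 at 0.612, Hoxb2 at 0.549 and Hoxb3 at 0.505 followed, and the intervals of neighbours in the order Hoxb4, Hoxb6, Hoxa4, Hoxb2 and Hoxb3 all overlapped. Hoxa2 at 0.176, Hoxa3 at 0.130 and Hoxb8 at 0.104 were lowest, their intervals overlapped one another, and that of Hoxa2 lay below that of Hoxb3. Along both clusters the level in wild type 2 thus peaked at the genes numbered 5 and was lower on either side. These intervals cover counting error in 1 library and not the recovery of reads. For Hoxb8 and Hoxa4 the reads are the fewest that the values allow, exact for 43.2% and 81.4% of genes like them. Their levels and places in the order may therefore be higher.

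**Figure D2:**
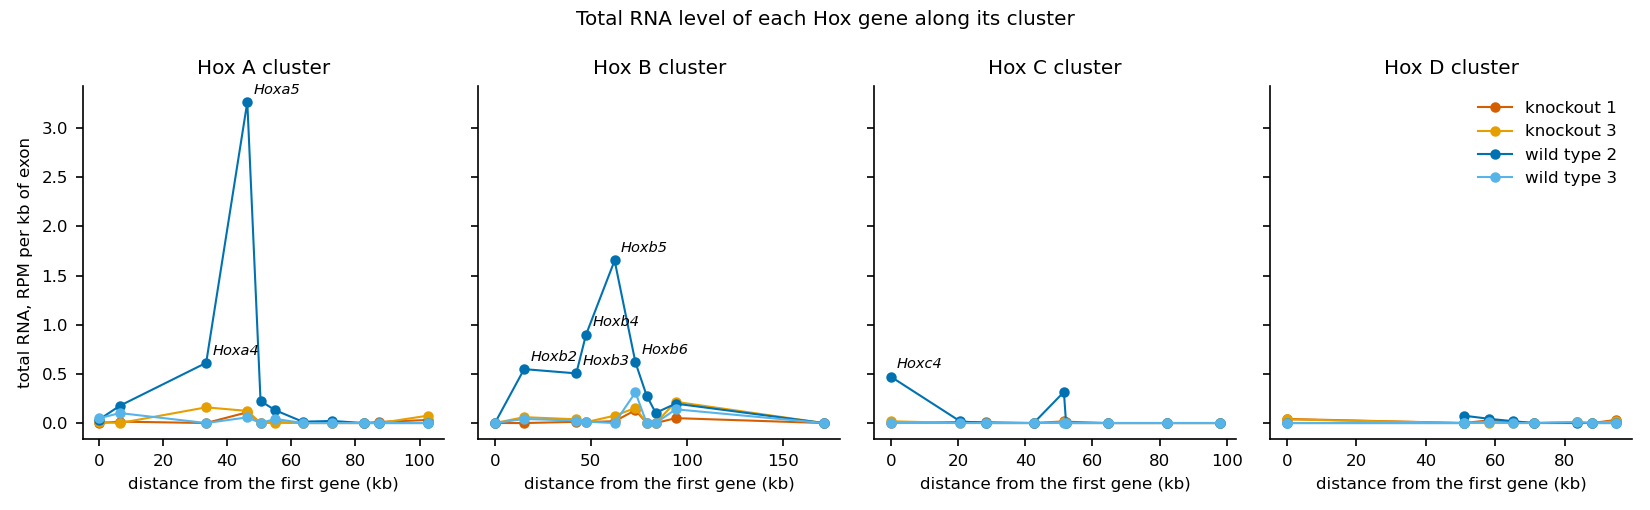
Total RNA of each Hox gene, in RPM per kb of exon (y axis), against the distance of its start from the first gene of its cluster in kb (x axis), 1 panel per cluster and 1 line per animal. The start is that of the outermost annotated transcript, which places Hoxa3, Hoxc5 and Hoxd3 behind genes of higher number. The wild type 2 line peaks at Hoxa5 (3.27) and Hoxb5 (1.65), and the lines of the knockouts and of wild type 3 stay at or below 0.312.

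The other Hox genes filled 30 rows with 29 symbols, of which 20 rows were above 0 in at least 1 library. Summed over them, total RNA held 0.642 and 0.971 RPM in knockouts 1 and 3, against 4.10 and 0.540 in wild types 2 and 3, and footprints 0.122 and 0.133 in the knockouts, against 3.89 and 0.253 in the wild types. Wild type 2 was again the highest animal in both sums. Hoxc4, the C-cluster relative of Hoxa4 and Hoxb4, was the most abundant, with 0 and 2 total RNA reads in the knockouts, against 31 and 0 in the wild types, and with 69 footprint reads in wild type 2 (10.3 RPKM) and none elsewhere. Hoxc5, which acts with Hoxa5 in phrenic motor neurons, had 2 and 1 total RNA reads in the knockouts, against 25 and 0 in the wild types, and no footprint reads in the knockouts, against 33 and 5 in the wild types. Wild type 2 held every read of Hoxb7 (11 in total RNA, 9 in footprints) and of Hoxa6 (5 and 12), and 16 of the 17 reads of Hoxc6. For genes at 0 in several libraries the reads given are the fewest that the values allow, and the same recovery was exact for 74% of genes like Hoxc4, 63.3% of those like Hoxb7 or like Hoxa6 and 86.4% of those like Hoxc6.

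The single highest library of the 20 rows belonged to wild type 2 in 12, knockout 1 in 5, knockout 3 in 2 and wild type 3 in 1. Besides those above, wild type 2 was highest for Hoxd3 (0.384 RPKM), Hoxd1 (0.153 RPKM, in footprints) and Hoxa7, Hoxa9, Hoxd4, Hoxd8 and Hoxd9 (at most 0.199 RPKM). Those with a knockout as the highest library included Hoxa13 (0.771 RPKM), Hoxb9 (0.231 RPKM), Hoxd13 (0.0808 RPKM), Hoxa11 (0.0219 RPKM), Hoxc10 (0.0124 RPKM) and Hoxc8 (0.0104 RPKM), and wild type 3 was highest for Hoxd11 (0.309 RPKM). In 11 of the 20 rows the highest library had at most 5 reads. Hoxa10, Hoxb1, Hoxb13, Hoxc9, Hoxc11, Hoxc12, Hoxc13, Hoxd10, Hoxd12 and 1 of the 2 Hoxd4 entries were listed at 0 throughout.

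The comparison of genotypes asks whether loss of Bmal1 changed these RNAs, and for the Hox genes its outcome turns on which wild-type animals enter. With all animals, the mean difference of log2(RPKM + 1), knockout minus wild type, was negative for 10 of 10 genes in total RNA and for 10 of 10 in footprints. Without wild type 2, total RNA was lower in the knockouts than in wild type 3 for 6 genes, higher for Hoxa4, Hoxa5 and Hoxb5, and equal at 0 for Hoxb8. Footprints without wild type 2 were lower for 4 genes, higher for Hoxa5, Hoxb4 and Hoxb6, and equal for 3. Without wild type 3 all 10 were lower in both fractions, which the choice of the genes had fixed.

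**Figure D3:**
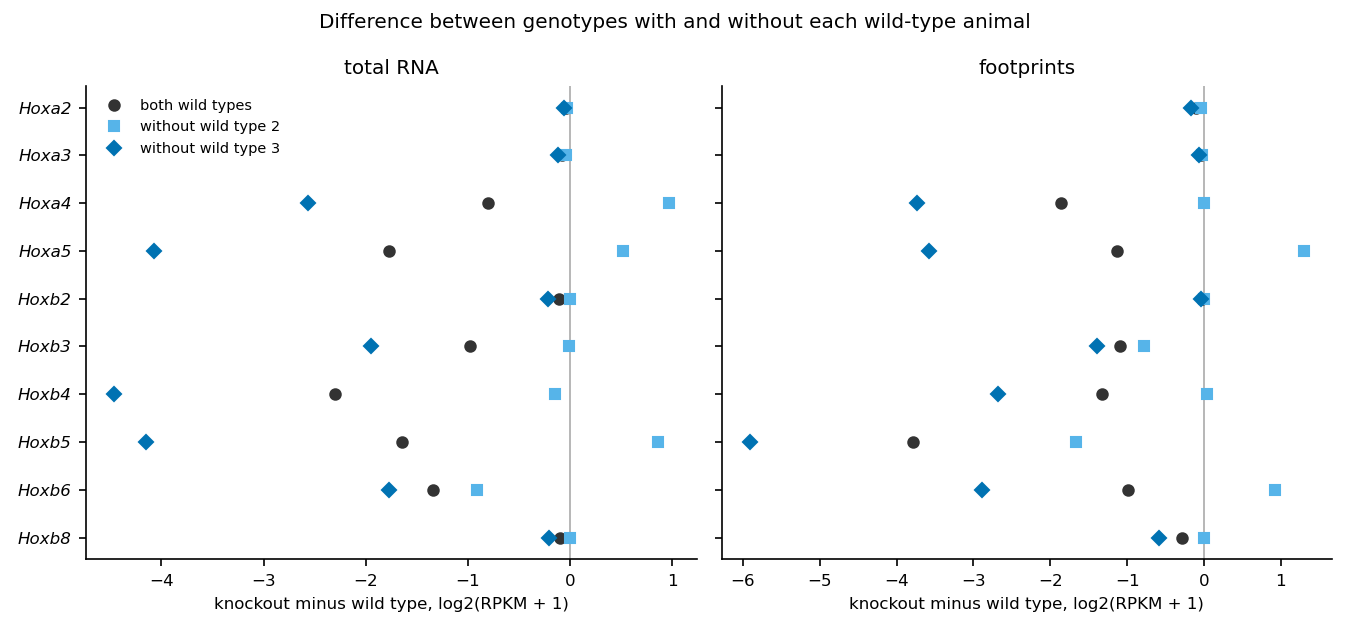
Knockout minus wild type difference of mean log2(RPKM + 1) for each gene (x axis) in total RNA (left) and footprints (right). Circles use both wild types, squares leave out wild type 2 and diamonds leave out wild type 3; for Hoxa5 the 3 values in total RNA are -1.77, 0.52 and -4.07.

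A limma model was fitted to log2(RPKM + 1) of every gene whose mean RPKM reached 1, and a gene was called at a Benjamini-Hochberg adjusted p under 0.05 over all genes tested. In total RNA 6 members passed the filter (Hoxa4, Hoxa5, Hoxb3, Hoxb4, Hoxb5 and Hoxb6), 2 of which also passed without wild type 2, and 0 of 6 were called, against 4.09% of 12690 genes. Their fold changes on the log2(RPKM + 1) scale lay between -2.30 (Hoxb4, SE 1.24) and -0.80 (Hoxa4, SE 1.16) with a median of -1.49, against -0.02 over all genes tested. The unadjusted p was under 0.05 for 1 of them. Limma-voom on recovered reads, which tested Hoxb2 in place of Hoxa4, called 0 of 6, against 11.6% of 14486 genes, with an unadjusted p under 0.05 for 3. Nothing is read from these counts, since the members were picked on the same values.

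Leaving out 1 wild type changed the calls. Without wild type 3, 5 of 6 members were called lower in knockout total RNA, against 4.44% of genes, with fold changes of -4.46 for Hoxb4, -4.15 for Hoxb5, -4.07 for Hoxa5, -1.95 for Hoxb3 and -1.77 for Hoxb6. Without wild type 2, only Hoxa5 (0.52, SE 0.18) and Hoxb6 (-0.91, SE 0.15) still passed the filter and neither was called, against 2.36% of genes. In both fits the 1 remaining wild-type library was assumed to vary like the knockouts. Nothing is read from the 5 calls without wild type 3 or from their share beside that of all genes. That fit sets the knockouts against wild type 2 alone, whose height was known when the genes were chosen. Hoxa4, Hoxb3, Hoxb4 and Hoxb5 passed the filter only through wild type 2. Hoxb6 had at least 10 reads in every total RNA library and was lower in both knockouts than in either wild type, and its limma fold change with all animals was -1.34 (SE 0.27).

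In footprints 5 members were tested and 0 of 5 were called, against 0.233% of 12447 genes. Hoxb5 differed most, by -3.79 (SE 1.31, limma adjusted p = 0.397), and Hoxb6 least, by -0.98 (SE 1.30, limma adjusted p = 0.895). The median of the 5 was -1.32, against -0.03 over all genes tested. The unadjusted limma p was under 0.05 for Hoxb5 alone. Limma-voom, which tested Hoxb3 but not Hoxa4 or Hoxb4, called 0 of 4, against 1.57% of genes, with an unadjusted p under 0.05 for Hoxb3 alone. Without wild type 3, Hoxb5 was called (-5.91). Nothing is read from that call, since the fit sets the knockouts against wild type 2 alone, whose height was known when the genes were chosen. Without wild type 2 the difference of Hoxb5 was -1.67, that of Hoxa5 was 1.31, and 0 of the 2 members still tested was called, against 0.0482% of genes. Hoxa4, Hoxb4 and Hoxb6 passed the filter only through wild type 2, so that nothing is read from the median of the 5 either.

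Translational efficiency, the ratio of footprint RPKM to total RNA RPKM, was compared between genotypes as an interaction term with the fraction. None of the 5 members tested was called by limma, against 0.0165% of 12089 genes, which is 2 genes, and 0 of the 5 had an unadjusted p under 0.05. Differences lay between -2.15 (Hoxb5, SE 2.43) and 0.98 (Hoxb4, SE 1.92), so that the SE exceeded the difference in both. That fit leaves out the animal, although both fractions come from 1 lysate. With the animal as a block the differences were the same, with an SE of 0.48 for Hoxb5 and 0.61 for Hoxb4, each below its difference. The unadjusted limma p of Hoxb5 was then 0.00352 (limma adjusted p = 0.653). Nothing is read from it, since Hoxb5 passed the filter only through wild type 2, whose height was known when the genes were chosen. Hoxb5 also had 0 total RNA reads in wild type 3 and 0 footprint reads in knockout 3. Without wild type 2 only Hoxa5 was still tested. The block called 1 gene in all and no member. Limma-voom, which tested Hoxb3 but not Hoxa4 or Hoxb4, called 0 of 4 members, against 0.00717% of genes.

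In wild type 2 alone the reads sufficed to set the ratio of each gene beside the others, with exact 95% counting intervals. Hoxb5 had a deposited ratio of 2.22 (1.80 to 2.76), above 90.6% of the 13432 genes with at least 20 total RNA reads in that animal, whose median was 0.929. Hoxa5, its counterpart in the A cluster, had 0.701 (0.556 to 0.883), and the intervals of this pair did not overlap. Hoxb8 at 3.29 (1.42 to 8.86) and Hoxa2 at 3.07 (1.39 to 7.68) also lay above the median, on 7 and 8 total RNA reads.

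The lowest ratios belonged to 3 neighbours in the B cluster. Hoxb2 had 0.167 (0.0784 to 0.326), Hoxb4 0.315 (0.189 to 0.511) and Hoxb3 0.460 (0.291 to 0.718), each with an interval below the median of all genes. For Hoxb2 and Hoxb3 the antisense transcript Hoxb3os covers part of the exons, as given above, and its part in the ratio was not tested. Hoxa4 at 1.16, Hoxb6 at 1.06 and Hoxa3 at 0.669 had intervals that included the median. No animal repeats these ratios. Outside wild type 2 the largest counts were 22 footprint and 8 total RNA reads, for Hoxa5 in knockout 1. The ratio there was 2.81 (1.21 to 7.31), an interval above that of Hoxa5 in wild type 2. Hoxb3 in wild type 3 had 4.01 (1.06 to 22.4), on 11 footprint and 3 total RNA reads, likewise above its own interval in wild type 2. In knockouts 1 and 3 the ratio of Hoxb3 was 0, on 2 and 7 total RNA reads.

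**Figure D4:**
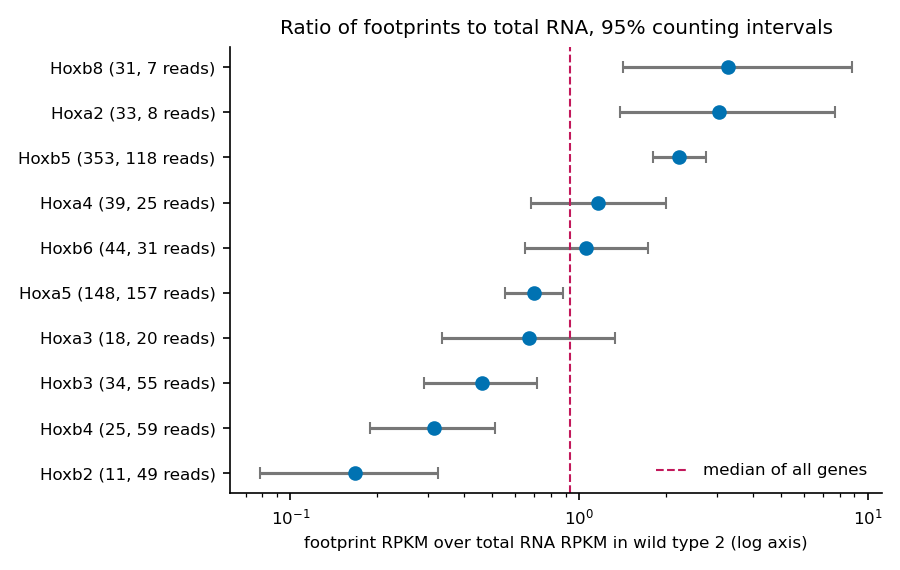
Ratio of footprint to total RNA RPKM in wild type 2 for each gene (x axis, log scale), with exact 95% counting intervals as bars and footprint and total RNA reads in brackets. The dashed line is the median of all genes, 0.929, and Hoxb5 (2.22) and Hoxa5 (0.701) lie on opposite sides of it.

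Partners and regulators of Hox genes had summed total RNA in wild type 2 of 0.987 (cofactors), 0.932 (Polycomb and trithorax) and 1.06 times (hindbrain and retinoic acid) that of the highest other animal. The 9 Hox cofactor genes (PBX, MEIS and PREP) summed to 378.8 and 343.7 RPM of total RNA in knockouts 1 and 3, against 373.8 and 335.5 in wild types 2 and 3, and limma called none of 9 in total RNA, footprints or efficiency, with a median fold change of 0.01 in total RNA. The unadjusted p was under 0.05 for 2 of them in total RNA and for 0 in footprints and efficiency, and limma-voom called 1, Meis2, in total RNA. The extremes in total RNA were Meis2 (-0.59, SE 0.24, limma adjusted p = 0.222) and Pbx4 (0.31, SE 0.20, limma adjusted p = 0.418). The 15 Polycomb and trithorax genes summed to 1016 and 989 RPM in the knockouts, against 947 and 913 in the wild types. Of these 1 rose in knockout total RNA, Kdm6b, a histone demethylase that removes the Polycomb mark (0.74, SE 0.13, limma adjusted p = 0.0397), a call that held without knockout 3 but was lost without knockout 1 (0.152), wild type 2 (0.0904) or wild type 3 (0.0805) as adjusted p. Limma-voom also called Kdm6b in total RNA. In footprints and efficiency neither tool called any of the 14 tested by limma, and the unadjusted p was under 0.05 for 0 in footprints and 1 in efficiency.

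Of 20 hindbrain and retinoic acid pathway genes, 12 were tested in total RNA, 1 rose and 1 fell, with a median of 0.18, against -0.02 over all genes tested. Rara, a retinoic acid receptor, had 1141 and 1010 reads in knockouts 1 and 3, against 252 and 310 in wild types 2 and 3, a fold change of 1.33 (SE 0.14, limma adjusted p = 0.00901). Aldh1a1, which makes retinoic acid, was lower (-0.95, SE 0.10, limma adjusted p = 0.00861). Rara was called with any 1 animal left out, and Aldh1a1 with any but knockout 1 (limma adjusted p = 0.0554 without it). In footprints limma called neither (Rara 1.04, limma adjusted p = 0.0792; Aldh1a1 -0.79, limma adjusted p = 0.227), while limma-voom called both. Egr2, a hindbrain factor upstream of Hox genes, had at most 12 reads in a library, and Cdx1 and Cdx4 were listed at 0 throughout.

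Markers of brainstem neurons were read for the same 4 animals, because the Hox genes are used here as markers of tissue beyond the cerebellum. The 8 cholinergic and motor genes summed to 2.10 and 4.37 RPM of total RNA in knockouts 1 and 3, against 17.6 and 3.96 in wild types 2 and 3, and to 3.88 and 5.18 in knockout footprints, against 26.1 and 6.36 in wild-type footprints. Wild type 2 was highest in both fractions for 6 of these 8 genes. Slc5a7, the choline transporter, had 18 and 63 total RNA reads in the knockouts, against 197 and 38 in the wild types, and 34 and 63 footprint reads in the knockouts, against 472 and 80 in the wild types. Chat, which makes acetylcholine, had 9 and 9 footprint reads in the knockouts, against 110 and 1 in the wild types. Of the other defining markers, Phox2a was at 0 in wild type 2 and had 1 read in all, and Isl1 had at most 6 reads in a library.

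The 10 glycinergic, glutamatergic and peptidergic genes summed to 142.7 and 147.1 RPM in knockout total RNA, against 250.9 and 187.4 in the wild types, and wild type 2 was highest in both fractions for 6 of 10. The sum is mostly Slc17a6 and Slc6a5, with 3301 and 2514 of 6426 total RNA reads in wild type 2. Tac1 (-0.68, SE 0.11, limma adjusted p = 0.0273) and Slc17a6 (-0.55, SE 0.09, limma adjusted p = 0.0277) fell in knockout total RNA. Tac1 had 33.3 and 35.5 RPKM in knockouts 1 and 3, against 59.6 and 52.2 in wild types 2 and 3. Slc17a6 had 49.7 and 51.9 RPKM in the knockouts, against 75.8 and 74.4 in the wild types. Wild type 2 thus did not stand apart in either gene. Neither call held in every fit with 1 animal left out, each of which leaves 1 animal in a group. The 10 monoaminergic genes behaved otherwise, with 15.8 and 26.1 RPM in the knockouts, against 20.1 and 22.0 in the wild types, and wild type 2 highest in both fractions for 1 of 10. Their 1 called gene, Tph2, which makes serotonin, rose in knockout total RNA (0.89, SE 0.16, limma adjusted p = 0.0402), a call lost without wild type 2 (0.102), knockout 1 (0.237) or knockout 3 (0.101) as adjusted p. In footprints the monoaminergic genes summed to 23.7 and 54.8 RPM in knockouts 1 and 3, against 44.0 and 38.6 in wild types 2 and 3. Much of that sum is Th and Ddc, with 653 and 327 of 1650 footprint reads in knockout 3 and 805 and 531 of 1674 in wild type 2. Slc6a2 and Dbh were highest in knockout 3 in both fractions, whereas Lmx1b was highest in wild type 2 in both. Cholinergic and motor genes were thus high in the same animal as the Hox genes. Monoaminergic genes were not, with their highest sums in knockout 3, and the part of the dissection in the Hox values was not tested.

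The 12 midbrain, isthmus and forebrain factors summed to 236.7 and 223.2 RPM in knockout total RNA, against 196.6 and 226.8 in the wild types. None of the 4 tested was called by limma or limma-voom or had an unadjusted p under 0.05. The sum is mostly En2, with 8206 of 9223 reads in knockout 1 and 4484 of 5036 in wild type 2. Gbx2 did not follow the sum, with 1 and 0 total RNA reads in the knockouts, against 10 and 0 in wild types 2 and 3, and 13 footprint reads in wild type 2 alone. Oligodendrocyte genes summed to 3982 and 3842 in the knockouts, against 6044 and 4449 in the wild types, with wild type 2 highest in both fractions for 2 of 8. Choroid plexus genes summed to 1877 and 2218 in the knockouts, against 882 in wild type 2 and 67.9 in wild type 3, so that there it is wild type 3 that stands apart. Astrocyte (2758 to 3089), meningeal and vessel (153.2 to 228.6) and blood genes (64.0 to 84.0) showed no library far from the rest in total RNA. Calls among these lists in total RNA were Fat2, Prlr, Sostdc1, Igfbp2 and Cldn5, higher in the knockouts, and Mag, S100b and Dcn, lower in them. Over all the lists of other genes, limma called 0 of 94 genes tested in footprints, with an unadjusted p under 0.05 for 33, and 0 of 90 in efficiency, with 1. Limma-voom called 18 of 109 in footprints, of which 7 were choroid plexus and 4 oligodendrocyte genes, and 0 of 108 in efficiency. Of the 14 list genes called by limma in total RNA, 8 were called without wild type 2, 12 without wild type 3, 1 without knockout 1 and 5 without knockout 3.

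**Figure D5:**
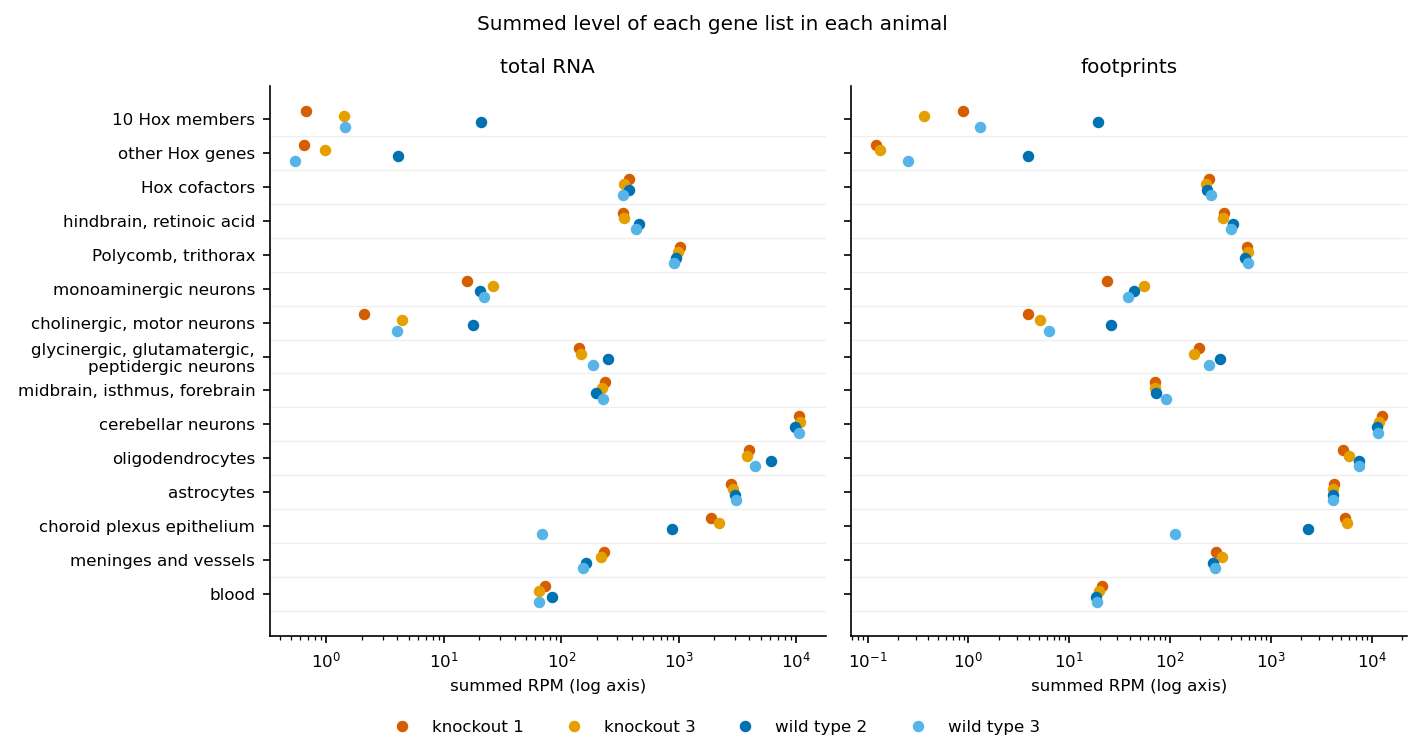
Summed RPM (x axis, log scale) of each gene list (y axis) in total RNA (left) and footprints (right), 1 point per animal. Wild type 2 lies apart from the other 3 animals for the 10 Hox genes (20.7 in total RNA), the other Hox genes (4.10) and the cholinergic and motor list (17.6).

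The genes whose pattern over the 8 libraries was most like that of the 10 Hox genes were sought among 365 non-Hox genes with enough level and spread, by Pearson's r between their centred log2(RPKM + 1) and the mean of the members. All r share the height of wild type 2, animals and depth, and are a description without a p. Gbx2, a homeobox gene of the midbrain-hindbrain boundary, came first (r = 0.98), with 1 and 0 total RNA reads in knockouts 1 and 3, against 10 and 0 in wild types 2 and 3, and 13 footprint reads in wild type 2 alone. Serpinb1b (0.94), Glra1 (0.94), Gabra5 (0.94), Lamp5 (0.93), Nr4a3 (0.93), Grp (0.92), Npy2r (0.91), S100a9 (0.90) and Sncg (0.90) followed.

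Glra1, a subunit of the glycine receptor, had 6.99 and 6.14 RPKM of total RNA in knockouts 1 and 3, against 31.2 and 10.2 RPKM in wild types 2 and 3, and 24.1 and 23.4 RPKM of footprints in the knockouts, against 111.1 and 39.8 RPKM in the wild types. Lamp5, a membrane protein of neurons, had 0.105 and 0.264 RPKM of total RNA in the knockouts, against 3.19 and 0.694 RPKM in the wild types, on 3007 footprint reads in wild type 2. In both, wild type 2 was highest, wild type 3 second, and the genotypes did not overlap. Among the members themselves, r with their own mean lay between 0.80 for Hoxb6 and 0.97 for Hoxb5, a mean that includes each of them.

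Promoters in the RefSeq table (GRCm38.p6, 250 bases before to 50 after the start) were found for 5 of the 10 genes, Hoxa2, Hoxa3, Hoxa5, Hoxb4 and Hoxb8. The letters CACGTG, an E-box bound by the BMAL1 complex, occurred in 0 of 5, against 7.15% of 32851 promoters. Retinoic acid response motifs, searched on both strands, were AGGTCA or AGTTCA followed by 5 unspecified bases and AGGTCA, and AGGTCA repeated after 2 unspecified bases. They occurred in 0 of 5, against at most 0.00913% of promoters. CpG pairs numbered 9 to 29 in the 5 promoters, against a median of 7 over all.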

How the data were processed

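Total RNA and ribosome footprints of mouse cerebellum were analysed from 2 tables of the authors. The build was mm10 and the tools were STAR, Bowtie and Cufflinks, per the submitters' processing notes; versions, settings and strand rule are not given in the sources used here. The deposited values per library are RPKM, per the file headers, and the authors' second table holds translational efficiency as a ratio, which equalled footprint RPKM over total RNA RPKM within 2% in all 56068 values checked. That ratio is listed at 0 where total RNA is 0. The factor between RPKM and reads differs between genes, so RPKM was compared only within a gene.

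Whole reads were recovered from the relative depth of the libraries and the authors' deposited mean read count per gene: all 2336 values of 292 genes with a mean under 20 lay within 0.1 of a whole number. For genes with a 0 in some library the solution with the fewest reads was taken. Tried on genes with known reads, it was exact for 90.6% or more of genes like each of the 10 Hox genes but Hoxa4 (81.4%) and Hoxb8 (43.2%). Counting intervals are exact at 95% and cover counting error only.

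Differences were fitted in R 4.3.3 to log2(RPKM + 1) by limma 3.58.1, with its variance trend, in genes with a mean RPKM of 1 or more; each adjusted p in the text is limma's. The scripts were tested on simulated data. The design foresaw 10 libraries, but the tables have columns for 8; total RNA of knockout 2 and wild type 1 was not analysed here. Both fractions of an animal come from 1 lysate, and their deviations correlated at -0.00 in knockouts and 0.25 in wild types. The animals of a group were not copies (chi-square over degrees of freedom 12.2 to 40.6); p-values measure the spread between these samples.

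The 10 genes, the gene lists and the tests were chosen with earlier results of these data known. Some items are not reported here. The text otherwise names the Hox genes above 0, the 10 most alike genes with a range of at least 1 log2 unit in each fraction, and list genes that were called or extreme. Alternatives were another pseudocount (0.1), no filter, quantile normalization, no variance trend, limma-voom, each animal left out, all libraries in 1 fit and the animal as a block.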

Additional observations from a re-analysis of the deposited data

How the results depend on the processing

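Whole-table counts moved with the processing. Against 519 genes called in total RNA, no filter on low values gave 26, limma-voom on recovered reads 1680, all libraries in 1 fit 217, and limma-voom without wild type 2, chosen after seeing the data, 1277; leaving out 1 animal gave 117 (knockout 1) to 563 (wild type 3), with 172 without knockout 3 and 299 without wild type 2. Against 29 in footprints, a pseudocount of 0.1 gave 17, no filter 1, limma-voom 223, 1 fit 315, limma-voom without wild type 2 gave 79, and leaving out 1 animal 1 to 6. Against 2 for translational efficiency, a pseudocount of 0.1 gave 5, limma-voom 1, the replicate block with the animal as a fixed term 1, and no filter, quantile normalization, no variance trend, limma-voom without wild type 2 and each animal left out gave 0. Of the 33 values, 6 stayed within 1.5 times, 563 among them. Left-out runs of knockout 2 and wild type 1 could not be made, as they have no column.

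For single Hox genes, 46 of 56 alternative fold changes in total RNA stayed within 1 SE; the 10 that moved were 8 with a wild type left out and Hoxb3 with a pseudocount of 0.1 (-1.94) or limma-voom (-2.23). In footprints 43 of 45 kept direction and side of the threshold. Hoxa5 (-3.58 to 1.31 over left-out animals) reversed without wild type 2. Hoxb5 moved across the threshold without wild type 3 (-5.91), where the choice of the genes had fixed the direction. In efficiency 4 of 44 reversed, Hoxa5 without knockout 1 (-0.41; 1.68 without knockout 3) and Hoxb6 under limma-voom (-0.11), without knockout 3 (-0.48) and without wild type 3 (-1.11; 1.20 without knockout 1). The replicate block changed no member's call. Ranked by the height of wild type 2 over the next animal, 4 of 10 genes in total RNA and 6 of 10 in footprints kept their rank on the log2(RPKM + 1) scale. Apart from the left-out animals, the cause was not tested. Outside wild type 2, low read counts limit the 10 members: at most 22 reads lie behind any of their values there.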

Other observations

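Hoxb9, the B-cluster gene next to Hoxb8 on the caudal side, did not share the pattern of its neighbours. It had 5 and 24 total RNA reads in knockouts 1 and 3, against 13 and 10 in wild types 2 and 3. With depth taken into account these are 0.128 and 0.555 RPM in the knockouts, against 0.508 and 0.360 RPM in the wild types. Knockout 3 was highest, but its counting interval (0.356 to 0.826) overlapped that of wild type 2 (0.270 to 0.868). No footprint read of Hoxb9 was seen in any of the 4 animals, where a count of 0 allows up to 3 reads a library. Hoxa13, the last gene of the A cluster, had 3 and 8 total RNA reads in knockouts 1 and 3 and none in either wild type, with no footprint read in any animal; recovery of reads was exact for 58.5% of genes like it.

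The deposited efficiency ratio of Hoxb5 is listed at 0 in wild type 3, where 10 footprint reads stand against 0 total RNA reads, so that this 0 is not a measured absence of footprints.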
